A study of Rattus norvegicus with 14 samples.

Results

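Persistent foci of placebo-treated rats were compared with liver regenerating under 2-acetylaminofluorene (AAF), gene by gene. The comparison used 6 of the 12 animals of the study, chosen by their labels alone, 3 with placebo foci and 3 with AAF/PH liver. All rats were male F344, an inbred strain. AAF/PH rats carried a 2.5 mg AAF pellet with a release time of 14 days from day 1, underwent partial hepatectomy on day 7 and were killed on day 14, and the tissue captured from them is labelled as oval cells. Rats with foci followed the Solt-Farber protocol. They received diethylnitrosamine at 200 mg/kg on day 1, the same kind of AAF pellet on day 14, and partial hepatectomy together with a 21-day placebo pellet on day 21. They were killed on day 70, and the captured lesions were positive for GSTP, a glutathione S-transferase first known from placenta. Both groups had therefore received AAF and partial hepatectomy, whereas only the foci followed diethylnitrosamine, and the interval from hepatectomy to death differed between them. Normal liver of 3 unmanipulated rats, the shared reference of the values against normal liver below, and foci of 3 rats given rapamycin at 2.5 mg/kg per day completed the study.

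AAF blocks the division of hepatocytes, so that after hepatectomy oval cells, progenitors with features of bile duct epithelium, expand from the portal tracts. In the Solt-Farber protocol, hepatocytes initiated by diethylnitrosamine escape that block and grow into foci, some of which persist. Such foci are known for GSTP and for enzymes of the response to electrophiles that the transcription factor NRF2 controls. NRF2 binds antioxidant response elements and drives glutathione synthesis, quinone reduction and the export of conjugates.

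Regions were captured with a laser from formalin-fixed, paraffin-embedded sections, and 150 ng of RNA per sample was labelled for Affymetrix Rat Gene ST 1.0 arrays. Values are array intensities, given per animal in the order of animals 1, 2 and 3, and differences are on the log2 scale as placebo foci minus AAF/PH liver, ± the standard error of the limma fit (n = 3 animals per group). The 41 gene lists described below were matched to the 14497 genes measured. The p-values rest on a shared estimate of the spread between animals within groups. That estimate also drew on the normal liver and rapamycin animals, and 3 animals per group limit the precision. The median intensity of an array over all probe sets lay between 21.2 and 22.5 in the foci and between 22.7 and 23.7 in AAF/PH liver. The spread of values within an array was unequal. Its interquartile range over the genes measured, on the log2 scale, was 2.14 to 2.61 in the foci and 1.98 to 2.25 in AAF/PH liver. In the rapamycin foci it was 1.57 to 2.49, lowest in an array of rapamycin animal 3. Over all genes the median difference was -0.05.

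Markers of cell types were measured as a check of the tissue labels. The summed intensity of 6 hepatocyte markers ran from 21530 to 25300 in the foci and from 14520 to 16960 in AAF/PH liver, against 26990 to 29910 in normal liver. Of these, Alb (albumin) and Apoa1 were higher in the foci and Ttr, Tf and Hnf4a, with differences above 0, did not pass. Cps1 did not pass either (-1.09, adjusted p = 0.0522) and went against the sum, with every focus below every AAF/PH animal. The call of Alb was lost in 12 of 23 alternatives, among them leaving out any 1 normal, AAF/PH or placebo animal (adjusted p up to 0.257), and that of Apoa1 in 0. The sum of the 5 markers of biliary and oval cells that were measured, Krt19, Krt7, Epcam, Cd24 and Spp1, overlapped between the groups, at 337.3 to 576.8 in the foci and 370.4 to 538.9 in AAF/PH liver, and lay above the 97.72 to 120.3 of normal liver. Cd24, a surface protein of progenitor cells, measured 217, 188 and 192 in the foci and 208, 182 and 283 in AAF/PH liver, and Epcam, the epithelial adhesion molecule, measured 36.3, 39.7 and 70.1 against 39.1, 37.2 and 65.3. Of these 5 markers 0 were called between the tissue labelled as oval cells and the foci. The 7 markers of stellate cells and myofibroblasts summed to 616.1 to 829.4 in the foci and 1354 to 4220 in AAF/PH liver, with no overlap. AAF/PH animal 2 stood highest there, with Col1a1 at 2029 against 316 and 571 in the other AAF/PH animals. Of 22 defining markers of T cells, B cells, neutrophils, mast cells, endothelium and red cells limma called 0, with 7 at an unadjusted p under 0.05. In longer lists of such genes Lcn2 (neutrophils) and Hbb-b1 (red cells) were called. Macrophage markers summed to 669.7 to 926.8 and 867.5 to 1033, with Marco alone called. In captured bulk tissue fewer cells of a type and less RNA per cell cannot be told apart.

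Between placebo foci and AAF/PH liver, limma called 608 of 14497 genes (4.19%) at an adjusted p under 0.05, of which 380 (2.62%) were higher and 228 (1.57%) lower in the foci. Differences of at least 2-fold were found in 457 calls (3.15%), made up of 317 (2.19%) of the higher and 140 (0.966%) of the lower calls. In 12.9% of all genes every focus stood above every AAF/PH animal and in 12.7% every focus stood below. Against normal liver, which serves as reference for both, 8.24% of genes were called in the foci (2.85% higher and 5.39% lower). In AAF/PH liver 20% were called (7.54% higher and 12.5% lower). All counts of list members below are to be read beside these shares of all genes. The number of calls between foci and AAF/PH liver depended on the animals in the fit. It was 355 without AAF/PH animal 2, 330 without AAF/PH animal 3, and 339, 369 and 367 without placebo animals 1, 2 and 3. Without rapamycin animal 3, which enters only through the shared estimate of the spread, it was 1734. With the 6 compared animals alone in the fit the number was 1330. Higher genes made up 62.5% of the calls, but 49.4% when an offset of 16 was added before log2.

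**Figure D1:**
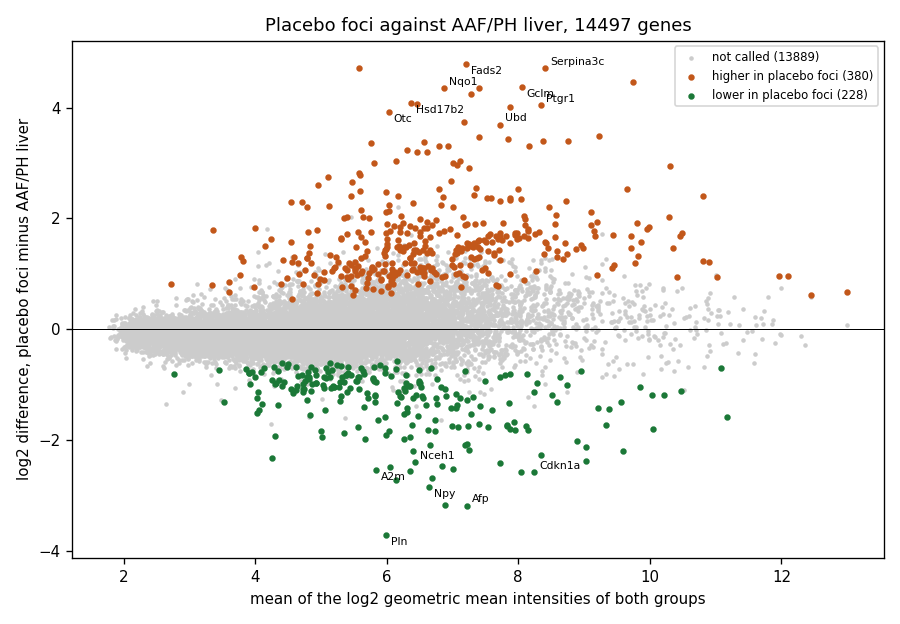
Log2 difference of each of 14497 genes (placebo foci minus AAF/PH liver, vertical axis) against the mean of both groups' log2 intensities (horizontal axis). The 380 genes higher and 228 genes lower in the foci are coloured, and Fads2 at 4.78 and Pln at -3.71 mark the extremes.

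Genes of fatty acid desaturation and of the response to electrophiles led the 15 largest rises. Gstp1 (probe set 10727429, chromosome 1 in GRCr8), the gene of the marker by which the foci were chosen and so no finding, measured 3743, 3748 and 4639 in the foci and 183, 152 and 216 in AAF/PH liver. Fads2 (probe set 10728631, chromosome 1 in GRCr8), the delta-6 desaturase, measured 793, 715 and 816 in the foci and 30.6, 27.1 and 26.7 in AAF/PH liver, a log2 difference of 4.78 ± 0.41 (adjusted p = 1.67e-05). The groups lay far apart, and AAF/PH liver was also far below normal liver at 1453, 1597 and 1418. Slc7a11 (probe set 10823057, chromosome 2 in GRCr8), the cystine importer that feeds glutathione synthesis, measured 257, 169 and 334 against 14.1, 7.53 and 7.55, a difference of 4.72 ± 0.53 (adjusted p = 0.000108). For Slc7a11 the AAF/PH animals lay near the 6.02 to 9.45 of normal liver, and the foci stood apart from both. Serpina3c, a serine protease inhibitor of the serum, measured 1608, 1904 and 1735 against 187, 25.7 and 61.6 (4.71 ± 0.48), with AAF/PH animal 1 above its group. Hsd17b2, which oxidises estradiol and testosterone, measured 502, 339.9 and 230.3 against 25.4, 24.3 and 13.2 (4.08 ± 0.33), and its foci exceeded normal liver at 92.3 to 104. Defb1, an antimicrobial peptide, measured 310.5, 328 and 455 against 24.9, 24.9 and 16, and Ptgr1, a reductase of prostaglandins and of reactive aldehydes, 1305, 1106 and 1586 against 102, 58.3 and 86.8. Ubd, a ubiquitin-like protein induced by interferon-gamma and TNF, measured 690.1, 459.8 and 1378 against 72.7, 39.5 and 70.8 (3.69 ± 0.49, adjusted p = 0.00043). Gclm, Fads1, Nqo1, Scd, Akr1b8, Otc and Thrsp completed the 15, with differences from 3.74 for Thrsp to 4.37 for Gclm, and are described with their groups. For 4 of the 15, Slc7a11, Hsd17b2, Defb1 and Otc, the AAF/PH mean lay below the lowest array median of that group, and whether these genes stood above background there was not tested. Their differences and ranks depend on those dim values. With an offset of 16 added before log2 the difference was 3.35 for Slc7a11 and 3.03 for Otc, and 4.16 for Fads2.

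The 15 largest falls held genes of several origins. Pln (probe set 10830174, chromosome 20 in GRCr8), phospholamban, an inhibitor of the calcium pump of the sarcoplasmic reticulum, measured 13.6, 24.7 and 16 in the foci and 207, 223 and 259.6 in AAF/PH liver, a difference of -3.71 ± 0.25 (adjusted p = 2.19e-06). Its foci lay at the level of normal liver, 15.8 to 19.7. The mean of the foci was below their lowest array median, so the size of the difference depends on dim values, and it was -2.86 with the offset of 16. Npy, a neuropeptide, measured 31.6, 38 and 43.7 against 103, 176 and 1076 (-2.84 ± 0.57, adjusted p = 0.00963), with AAF/PH animal 3 far above its group. Lgals2, a galectin, measured 34.1, 52.4 and 64.7 against 246, 241 and 338, and Nceh1, a cholesteryl ester hydrolase, 36.8, 36.8 and 38.8 against 172, 189 and 238. These 4 genes were higher in AAF/PH liver than in normal liver (adjusted p from 3.92e-07 to 0.00905) and were not called in foci against normal liver. For Crot, the carnitine octanoyltransferase of peroxisomes, the pattern differed. Crot measured 32.7, 33.2 and 56.6 in the foci and 416, 299 and 364 in AAF/PH liver, while normal liver stood at 324, 298 and 350.2, so that the foci alone were low (-3.03 against normal liver, adjusted p = 4.37e-06). Cdh17, the liver-intestine cadherin, measured 18.6, 37.1 and 30.1 against 257, 107 and 216 (-2.72 ± 0.32), and normal liver, at 401 to 443, was higher than both. Igfbp1 measured 104, 80.1 and 150.3 against 229.6, 1322 and 874 (-2.58 ± 0.50), and A2m, alpha-2-macroglobulin, 24.9, 28.2 and 18.7 against 129, 71 and 285 (-2.54 ± 0.61). The AAF/PH animals spread widely for both, and the call of A2m was lost in 7 of 23 alternatives. Afp, Dmbt1, Cdkn1a, Angptl4, Pdk4, Lama5 and Cyp4a1 are described with their groups.

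**Figure D2:**
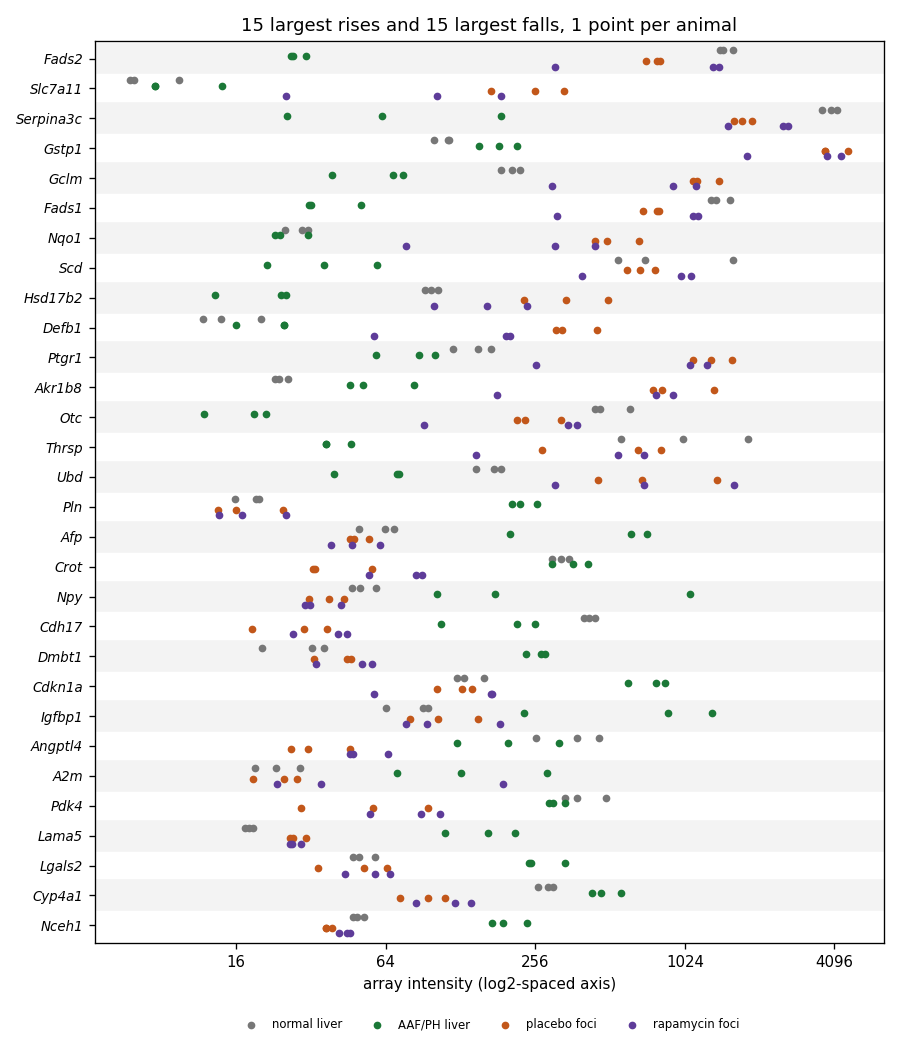
Array intensity (log2-spaced axis) of the 15 genes that rose most and the 15 that fell most in placebo foci against AAF/PH liver, 1 point per animal in 4 groups of 3 animals. The genes were chosen among those whose placebo foci and AAF/PH animals do not overlap. For Fads2, Scd and Otc AAF/PH liver was called lower than normal liver and the foci were not, although every focus lies below every normal animal for Fads2 and Otc. For Slc7a11, Nqo1 and Crot the foci were called against normal liver and AAF/PH liver was not.

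NRF2 targets were higher in the foci in 17 of 23 measured members and lower in 0, with a median of 1.89. Leaving out placebo animal 3 lowered the 17 to 12, and leaving out AAF/PH animal 2 to 13. There were 14 without AAF/PH animal 3 or placebo animal 1 or 2, and 15 without AAF/PH animal 1. Without rapamycin animal 3 there were 19. Against normal liver 14 of the 23 were higher in the foci (2.85% of all genes were) and 4 higher and 2 lower in AAF/PH liver (7.54% and 12.5%), with medians of 1.69 and -0.14. The foci had been chosen by GSTP, and the part of that choice in the values of these members was not tested. The antioxidant response element that NRF2 binds was looked for in RefSeq promoters (assembly GRCr8, 250 bases before to 50 after the start) after the values were known. The letters searched were TGACNNNGC on either strand, the other strand reading GCNNNGTCA. They occurred in 5 of the 17 NRF2 targets with a promoter in the table and in 4 of 13 other glutathione S-transferases. The promoter of Gstp1, the gene of the marker that chose the foci, held them as well. The shares were similar in lists not chosen for NRF2, with 4 of 15 sterol synthesis and 4 of 17 fatty acid synthesis promoters, while 12.2% of all 27457 promoters and 13.8% of those of genes tested held the letters. The 5 were Abcc2, Gclm, Prdx1, Me1 and Ugdh. The 250 bases before the start of Gclm (chr2:213031885-213032134, plus strand) and of Me1 (chr8:96540245-96540494, minus strand) are shown as members of the list that carry such a match and were called, with the matching letters in capitals.
Gclm: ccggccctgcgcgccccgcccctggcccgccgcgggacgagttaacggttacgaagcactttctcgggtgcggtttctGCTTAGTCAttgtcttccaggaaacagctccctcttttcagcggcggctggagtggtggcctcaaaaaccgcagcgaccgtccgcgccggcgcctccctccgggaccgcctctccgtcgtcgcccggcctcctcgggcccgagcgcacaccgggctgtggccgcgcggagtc
Me1: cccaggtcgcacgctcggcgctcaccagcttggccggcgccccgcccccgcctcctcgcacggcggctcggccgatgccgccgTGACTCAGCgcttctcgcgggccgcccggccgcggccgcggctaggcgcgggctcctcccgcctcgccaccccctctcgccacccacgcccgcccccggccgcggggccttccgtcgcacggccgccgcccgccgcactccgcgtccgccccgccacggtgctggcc
In Gclm the match began 172 bases and in Me1 167 bases before the start. A match is a description of these letters only.

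Among genes of glutathione synthesis, Gclm, the modifier subunit of the rate-limiting ligase, measured 1145, 1100 and 1410 in the foci and 75, 38.8 and 68.4 in AAF/PH liver (4.37 ± 0.39, 20.7-fold, adjusted p = 2.18e-05). Normal liver, at 186, 222 and 206, lay between the groups, so that Gclm was higher than normal in foci and lower than normal in AAF/PH liver (adjusted p = 0.000771 and 0.00441). Gclc, the catalytic subunit, measured 1397, 1209 and 1614 against 208, 93.9 and 121 (3.39 ± 0.37). Gsr, which regenerates reduced glutathione, measured 554, 454 and 577 against 117, 76.4 and 129 (2.33 ± 0.39). In each of these genes every focus was above every AAF/PH animal. Nqo1, the quinone reductase, measured 496, 447 and 669 in the foci and 22.9, 31.2 and 24.1 in AAF/PH liver (4.36 ± 0.45, adjusted p = 4.84e-05). Akr1b8, an aldo-keto reductase, measured 830.5, 763 and 1336 against 46.2, 52.1 and 83.5 (4.01 ± 0.46). Akr7a3, the reductase of aflatoxin dialdehyde, measured 1992, 1906 and 2108 against 194, 149 and 200.3 (3.48 ± 0.33). The aldehyde dehydrogenase gene Aldh3a1 stood at 84.8, 71.9 and 73.6 against 13.8, 12.9 and 11.1 (2.61 ± 0.18). AAF/PH liver lay close to normal liver for Nqo1 and Aldh3a1, at 25.2 to 31.3 and 10.5 to 11.5 in normal liver. For Aldh3a1 both lay below the lowest array median of their group, 22.7 in AAF/PH liver and 19.8 in normal liver. Whether Aldh3a1 stood above background there was not tested. Txnrd1, thioredoxin reductase, stood at a geometric mean of 277 against 59.9 and Ugdh, which makes UDP-glucuronic acid, at 900.3 against 91.3.

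The NADPH-producing members were also higher. Me1, malic enzyme, measured 165, 125 and 131 in the foci and 49.4, 27.2 and 43.3 in AAF/PH liver (1.85 ± 0.43, adjusted p = 0.0255). Taldo1 and Tkt, of the pentose phosphate pathway, differed by 1.71 ± 0.35 and 1.52 ± 0.39. Exporters of conjugates on the list were Abcc3, at 436, 398 and 476 against 75.2, 82.5 and 96 (2.37 ± 0.31), and Abcc2, at 1217, 964 and 1009 against 363, 238 and 272 (1.89 ± 0.33). Fth1 and Ftl1, the ferritin chains, were higher by 0.97 ± 0.19 and 0.68 ± 0.17, on arrays where Ftl1 stood at 9912 to 10884 in the foci. The call of Ftl1 was lost in 11 of 23 alternatives, among them quantile normalization and leaving out any AAF/PH or placebo animal, and that of Fth1 in 2. Prdx1 (0.74, adjusted p = 0.0689), Ephx1 (0.52, adjusted p = 0.496) and Srxn1 (0.46, adjusted p = 0.524) did not pass, nor did Hmox1 at -0.29, Cbr1 at -0.44 and Trib3 at -0.43. Ephx1, the microsomal epoxide hydrolase, measured 2219, 1943 and 2539 in the foci and 1551, 1485 and 1619 in AAF/PH liver, both above the 676 to 706 of normal liver, and was called against normal liver in both groups. Srxn1 showed the same order, with 41.7 to 80.1 and 31.4 to 51.9 over 18.8 to 24.6.

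**Figure D3:**
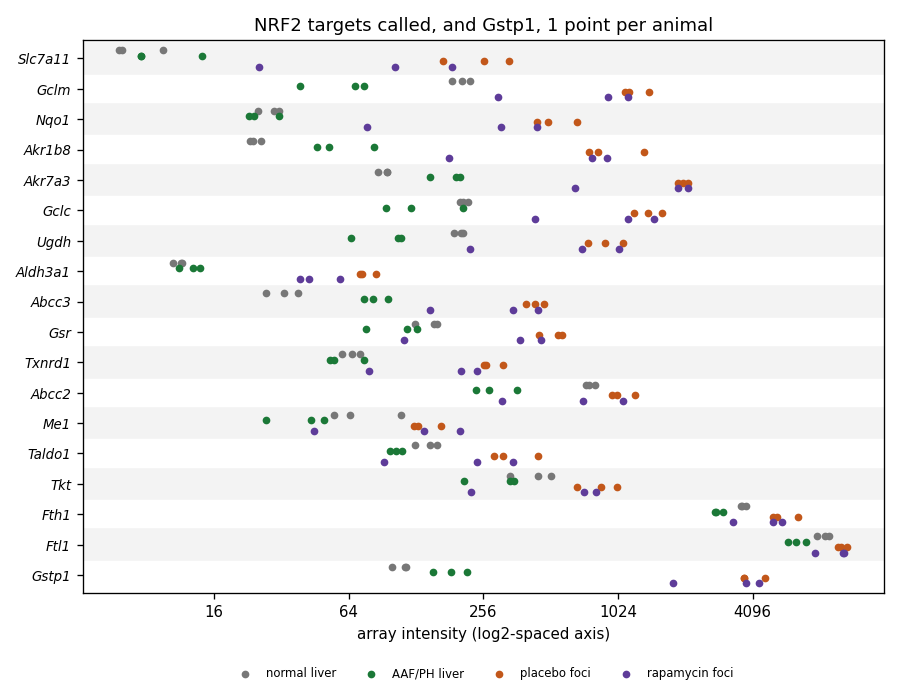
Array intensity (log2-spaced axis) of the 17 NRF2 targets called in placebo foci against AAF/PH liver, and of Gstp1, 1 point per animal in 4 groups of 3 animals. All placebo foci lie above all AAF/PH animals in each gene shown, and AAF/PH liver lies below normal liver for Gclm and Abcc2 and above it for Abcc3.

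Glutathione S-transferases other than Gstp1, which join glutathione to electrophiles, were higher in 6 of 16 and lower in 0, with a median of 1.02. Of all genes 2.62% were higher and 1.57% lower. Gsta4, which prefers the lipid aldehyde 4-hydroxynonenal, measured 503, 466 and 779 in the foci and 74.2, 53.2 and 33.4 in AAF/PH liver (3.48 ± 0.50, adjusted p = 0.000852). Mgst2, a microsomal member, measured 1832, 1729 and 2307 against 442, 286 and 295 (2.54 ± 0.36), and Gstt1 measured 280.5, 240.3 and 353 against 102, 66 and 67.7 (1.90 ± 0.31). Foci and AAF/PH liver did not overlap in these 3 genes, and in each AAF/PH liver was below normal liver (adjusted p from 0.0015 to 0.00488) while the foci were not called against it. Gstm1, Gsta1 and Gstm7 were higher by 0.95, 1.33 and 1.42, and Gsta1 and Gstm7 lost their calls in 7 and 8 of 23 alternatives. Gstm4 (1.41, adjusted p = 0.0617), Gsta3 (1.30, adjusted p = 0.0597) and Gstt2 (1.06) did not pass although every focus stood above every AAF/PH animal in 12 members of the list, where 12.9% of all genes did so. Gsta3 was high in both groups, at 138, 128 and 191 in the foci and 68.9, 60.6 and 53.8 in AAF/PH liver against 14.3 to 16 in normal liver. The count of 6 was 4 without AAF/PH animal 1 or 3 or any of the 3 placebo animals and 5 without AAF/PH animal 2. It was 10 without rapamycin animal 2 and 11 without rapamycin animal 3. Near-identical paralogs in this family may share array signal, which was not tested.

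Genes of fatty acid and triglyceride synthesis were higher in 11 of 22 members and lower in 1, with a median of 1.35. Fads1, the delta-5 desaturase, measured 794, 695 and 808 in the foci and 50.8, 32 and 31.6 in AAF/PH liver (4.36 ± 0.38, adjusted p = 1.9e-05). Scd, the stearoyl desaturase, measured 774, 674 and 597 against 36.3, 58.9 and 21.3 (4.25 ± 0.44), and Thrsp, a nuclear protein of lipogenic tissue, 818, 666 and 272 against 36.8, 46.3 and 36.8 (3.74 ± 0.54). Placebo animal 3 was the lowest of the foci for Scd and Thrsp and still stood above every AAF/PH animal. In normal liver Scd ran from 549.8 to 1592 and Thrsp from 565 to 1833, and neither gene was called in foci against normal liver (adjusted p = 0.722 and 0.36). Acacb, the carboxylase that restrains fatty acid entry into mitochondria, measured 94.8, 92.9 and 118 against 16.3, 23.3 and 18.2 (2.41 ± 0.34), and Pklr, liver pyruvate kinase, 158, 178 and 150.3 against 49.4, 44.5 and 43.7 (1.82 ± 0.30). Fasn, fatty acid synthase, stood at a geometric mean of 181 against 45.3 (2.00 ± 0.50, adjusted p = 0.0358), and Acly, Acaca and Elovl6 differed by 1.57, 1.57 and 1.50. Elovl5 (1.19, adjusted p = 0.106), Acss2 (0.96) and Mlxipl (0.94), the transcription factor ChREBP, did not pass.

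Lpin1, a phosphatidate phosphatase that is also a coactivator in fasting, was the member that fell. It measured 75.7, 85.8 and 55.5 in the foci and 184, 284 and 526 in AAF/PH liver (-2.08 ± 0.50, adjusted p = 0.0292), with AAF/PH animal 3 the highest. Against normal liver, 0 of the 22 members of fatty acid and triglyceride synthesis were higher and 6 lower in the foci (5.39% of all genes were lower). In AAF/PH liver 0 were higher and 17 lower (12.5% of all genes were lower), and the medians were -0.93 and -2.15. The summed hepatocyte markers given above were also higher in the foci than in AAF/PH liver, and the part of that difference in these and the following hepatocyte genes was not tested. The count of 11 higher members was 7 without AAF/PH animal 1 or 3, 6 without AAF/PH animal 2 or any of the 3 placebo animals and 17 without rapamycin animal 3. The call of Lpin1 was lost without AAF/PH animal 2 or 3 or any placebo animal.

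Sterol synthesis was higher in 6 of 19 members and lower in 0, with a median of 0.72. Dhcr7, which makes cholesterol from 7-dehydrocholesterol, measured 426, 428 and 845 in the foci and 127, 79.3 and 109.5 in AAF/PH liver (2.37 ± 0.47, adjusted p = 0.00876). Its foci lay around the 428 to 556 of normal liver. Msmo1, the methylsterol monooxygenase, measured 129, 159.5 and 222 against 72.3, 46.5 and 49.8 (1.59 ± 0.37), where normal liver measured 334 to 406. Sc5d, Ebp, Cyp51 and Tm7sf2 were higher by 1.57, 1.43, 1.31 and 1.07, while Nsdhl (1.26, adjusted p = 0.114), Idi1 (0.83) and Srebf2 (0.76, adjusted p = 0.169), the transcription factor of the pathway, did not pass. Against normal liver 8 of the 19 were lower in the foci (5.39% of all genes) and 17 lower in AAF/PH liver (12.5%). The count of 6 was 3 without AAF/PH animal 1, placebo animal 1 or normal animal 3, 1 without AAF/PH animal 3 or placebo animal 2, 0 without AAF/PH animal 2 or placebo animal 3, and 12 without rapamycin animal 3. The promoters of these genes were searched after the values were known, for the CCAAT box bound by the factor NF-Y (letters CCAAT, other strand ATTGG) and for a sterol regulatory element. CCAAT was found in 13 of 15 sterol synthesis promoters, 11 of 17 fatty acid synthesis promoters, 7 of 13 other glutathione S-transferases, 3 of 17 NRF2 targets and 37.7% of all promoters. The letters of the sterol element, with 1 free position, were in 0 of 15 sterol synthesis promoters and in 0.251% of all. With a match that rare among all promoters, 0 was the likely count for any list of this size. Looser forms of the element were not searched, so whether these promoters hold sterol elements was not tested. The 250 bases before the start of Msmo1 (chr16:29746863-29747112, plus strand of GRCr8, RefSeq) hold 3 CCAAT boxes, in capitals. They are shown as an example of the list.
Msmo1: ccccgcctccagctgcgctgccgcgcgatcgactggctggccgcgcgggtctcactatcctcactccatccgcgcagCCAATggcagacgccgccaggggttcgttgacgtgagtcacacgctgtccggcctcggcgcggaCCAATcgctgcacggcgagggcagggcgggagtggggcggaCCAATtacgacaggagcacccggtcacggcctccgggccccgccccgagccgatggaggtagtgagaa

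Apolipoproteins and lipoprotein handling, the secretion of lipid by hepatocytes, were higher in 10 of 22 members and lower in 1, with a median of 0.76. Apof, the lipid transfer inhibitor protein, measured 287, 304 and 303 in the foci and 59.4, 24.1 and 23.8 in AAF/PH liver (3.20 ± 0.32, adjusted p = 4.78e-05). Apoc1 measured 3331, 3556 and 3667 against 699.9, 473 and 283 (2.95 ± 0.27), and Apoa1, the main protein of HDL, 3796, 3582 and 5203 against 737, 943 and 693 (2.40 ± 0.27). For Apoa1 no focus lay below the 3044 to 3178 of normal liver, whereas Apoc1 and Apof were lower than in normal liver in both groups. Apoc3 and the HDL receptor gene Scarb1 were higher by 2.02 and 1.36. Apoa5, which activates lipoprotein lipase, was the member that was lower, at 186, 219.8 and 270.0 against 420.4, 388 and 518 (-0.98 ± 0.21, adjusted p = 0.0138). Lpl (-0.99, adjusted p = 0.0565), Mttp (0.95) and Apob (0.74) did not pass. The count of 10 was 5 without AAF/PH animal 3 or placebo animal 1 or 3 and 6 without placebo animal 2, and the call of Apoa5 was lost without AAF/PH animal 3 or placebo animal 1 or 2. Lower members numbered 2 without placebo animal 3 or rapamycin animal 3.

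Bile acid genes were higher in 5 of 23 (2.62% of all genes were) and lower in 0, with a median of 0.44. Slc10a1, the sodium-dependent importer of bile acids, measured 330.5, 357 and 472 in the foci and 44.8, 51.7 and 25.1 in AAF/PH liver (3.30 ± 0.34, adjusted p = 4.84e-05), and normal liver exceeded both at 1201 to 1329. Nr0b2, the repressor SHP that the bile acid receptor induces, measured 169, 90.8 and 90.6 against 12.1, 20.1 and 22.6 (2.66 ± 0.39). Every AAF/PH value of Nr0b2 lay below the lowest array median of that group, 22.7, so the size of the difference depends on dim values. Baat, which joins bile acids to amino acids, and Slco1a4, another importer, were higher by 1.62 and 1.11. The phospholipid exporter Abcb4 (1.15, adjusted p = 0.0709), Amacr (0.88) and the bile salt export pump Abcb11 (0.83, adjusted p = 0.182) did not pass. The count of 5 was 3 without AAF/PH animal 2 or 3 or placebo animal 3 and 9 without rapamycin animal 3. Among hepatocyte transcription factors Nr0b2, Ppara (1.07) and Cebpa (0.76) were higher of 20, with the latter pair lost in 12 and 14 of 23 alternatives. The higher count was 1 without AAF/PH animal 1, 2 or 3, placebo animal 1, 2 or 3, or normal animal 1 or 3, and Nr0b2 kept its call in each. A lower call was added without placebo animal 2, and without rapamycin animal 3 there were 6 higher and 1 lower.

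Genes of fatty acid oxidation and targets of PPAR alpha, the receptor that drives it in fasting, went both ways, 3 higher and 6 lower of 26, with a median of -0.13. Angptl4, which inhibits lipoprotein lipase, measured 31, 26.7 and 46 in the foci and 199, 124 and 320.1 in AAF/PH liver (-2.56 ± 0.32, adjusted p = 0.000258). Pdk4, which shuts glucose carbon out of the citric acid cycle, measured 29.1, 56.8 and 94.9 against 289.5, 302 and 337 (-2.52 ± 0.34). The omega-hydroxylase genes Cyp4a1, at 94.5, 73.1 and 111 against 470.2, 432 and 569 (-2.41 ± 0.22), and Cyp4a3, at 263, 357 and 497 against 1751, 1353 and 1911 (-2.20 ± 0.22), were also lower. For Angptl4, Pdk4 and Cyp4a3 AAF/PH liver was not called against normal liver (adjusted p from 0.0791 to 0.455) and the foci were below it. Acot2 (-1.58) and Vnn1 (-0.92) were lower as well. In the other direction Ehhadh, the bifunctional enzyme of peroxisomal oxidation, measured 135, 119 and 187 against 51.2, 32.8 and 49.2 (1.73 ± 0.32), and Bdh1 and Acadm were higher by 1.45 and 1.26. Ppara itself was higher in the foci, as given with the transcription factors. Plin2 (-1.39, adjusted p = 0.0517), Acot1 (-1.13) and Hadh (0.93) did not pass. The count of 3 higher was 1 without AAF/PH animal 2 or 3 or placebo animal 1 or 3 and 6 without rapamycin animal 3.

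The urea cycle and amino acid breakdown were divided as well, with 5 higher and 5 lower of 26 and a median of -0.24. Otc, ornithine transcarbamylase, measured 232, 216 and 326 in the foci and 18.9, 21.2 and 11.9 in AAF/PH liver (3.91 ± 0.42, adjusted p = 6.86e-05), where the AAF/PH values lie below the array medians. Asl, which acts further along the same cycle, measured 159.5, 138 and 156 against 553, 523 and 523 (-1.82 ± 0.27, adjusted p = 0.0011). Enzymes of 1 cycle thus stood on opposite sides, and Cps1, the entry enzyme, measured 1003, 859.9 and 1192 against 2308, 2006 and 2164 without passing (-1.09, adjusted p = 0.0522). Bhmt, which methylates homocysteine, and Gpt, alanine aminotransferase, were higher by 2.11 and 1.44. Tat, tyrosine aminotransferase, stood at a geometric mean of 235 in the foci against 956 in AAF/PH liver (-2.02 ± 0.42), and Got1, aspartate aminotransferase, 118, 110.0 and 145 against 406, 589 and 299 (-1.75 ± 0.34). Of the gluconeogenic and other hepatocyte genes, Pck1 measured 591, 444 and 700.5 against 1776, 2123 and 2090 (-1.81 ± 0.29) and Aass, of lysine breakdown, 47.9, 36.1 and 67.9 against 257, 266 and 131 (-2.08 ± 0.34). Higher members of urea and amino acid genes numbered 3 without AAF/PH animal 3 or placebo animal 3. The lower members numbered 3 without AAF/PH animal 1 or any placebo animal, 1 without AAF/PH animal 2 and 9 without rapamycin animal 3. Mature hepatocyte genes were higher in 5 of 23 and lower in 3, with higher members at 3 without AAF/PH animal 3 or placebo animal 3 and at 10 without rapamycin animal 3, where 5 were lower.

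Cytochrome P450 genes were higher in 6 and lower in 5 of 32, with a median of 0.12. In each group taken separately 21 of the 32 were lower than in normal liver. Of all genes 5.39% were lower than normal in the foci and 12.5% in AAF/PH liver. Cyp2c11, the main male-specific P450 of the rat, measured 52, 230.0 and 60.8 in the foci and 14.5, 13.6 and 12 in AAF/PH liver (2.75 ± 0.43, adjusted p = 0.00161), where normal liver measured 1455 to 1999. Placebo animal 2 was the highest of the foci. For Cyp2c11 every AAF/PH value lay below the lowest array median of that group, 22.7, so the size of its difference depends on dim values. Cyp2b2, inducible by phenobarbital, measured 109.6, 143 and 210.3 against 24.7, 30.3 and 25.9 (2.47 ± 0.31), and Cyp2a2, another male-specific form, 97.6, 124 and 129 against 41.5, 29.3 and 35.3 (1.73 ± 0.30). The lower members were Cyp4a1, Cyp4a3, Cyp1b1, Cyp2e1 and Cyp1a2. The pair Cyp2e1, at 687, 798 and 893 against 1961, 1824 and 1639 (-1.19 ± 0.25), and Cyp1a2, at 66, 90.3 and 89.7 against 189.7, 223 and 119 (-1.08 ± 0.24), is of the pericentral zone. In that zone's list 4 of 14 were lower and 0 higher (median -0.38), the others being Oat (-1.33) and the glutamate transporter gene Slc1a2 (-1.06), while the Wnt targets Nkd1 (-0.93, adjusted p = 0.0736) and Axin2 (-0.76, adjusted p = 0.0645) and the Wnt inhibitor gene Notum (0.44) did not pass. The pericentral count was 1 without AAF/PH animal 1 or placebo animal 1, and the lower P450 count was 3 without AAF/PH animal 1 or 2 or placebo animal 1. Higher P450 members numbered 4 without AAF/PH animal 3 or placebo animal 2, and 5 without AAF/PH animal 2, placebo animal 1 or 3 or normal animal 3. They numbered 7 without AAF/PH animal 1 and 10 without rapamycin animal 3.

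Conjugating enzymes were mostly higher in the foci, and exporters were divided. Of 17 sulfotransferases and glucuronosyltransferases 5 were higher and 1 lower (2.62% and 1.57% of all genes were). Their median was 0.37, with 13 differences above 0. Sult1c3 measured 81.4, 154 and 123 in the foci and 28.7, 34.2 and 8.67 in AAF/PH liver (2.50 ± 0.46), and Ugt2b37 452, 504 and 468 against 124, 82.1 and 84.2 (2.32 ± 0.27, adjusted p = 0.000125), whereas Ugt2b1 measured 50.9, 92.6 and 83.1 against 370.3, 240.0 and 325 (-2.07 ± 0.42). The higher count was 3 without AAF/PH animal 3 or placebo animal 3 and 8 without rapamycin animal 3, and Ugt2b1 lost its call without placebo animal 1. Among 19 ABC exporters 4 were higher and 2 lower, with a median of -0.03. Abcc4, an exporter of organic anions at the sinusoidal membrane, measured 338, 378 and 316 against 112, 141 and 134 (1.42 ± 0.17), and Abcg5, of the sterol exporter, 38.4, 32.3 and 38.2 against 17.3, 13.6 and 15.8 (1.22 ± 0.19). For Abcg5 every AAF/PH value lay below the lowest array median of that group, 22.7. Abcb1b, a multidrug exporter, went the other way, at 273, 181 and 239 against 1184, 1104 and 1280 (-2.38 ± 0.34, adjusted p = 0.000757). It was above the 38.2 to 55.1 of normal liver in both groups, by 2.37 in the foci and 4.75 in AAF/PH liver.

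Stellate cell and matrix genes were the largest group lower in the foci, with 21 of 34 members lower, 0 higher and a median of -1.11. Lama5, a laminin chain of basement membrane, measured 27.2, 26.3 and 30.6 in the foci and 166, 111 and 213 in AAF/PH liver (-2.50 ± 0.21, adjusted p = 1.35e-05). Tagln, transgelin of contractile cells, measured 77, 61.3 and 78.3 against 272, 292 and 426 (-2.17 ± 0.22), and Col4a1, of basement membrane, 76.1, 70.3 and 74.1 against 211, 249 and 297 (-1.77 ± 0.17). The groups did not overlap in these genes. Fibrillar collagens varied more within AAF/PH liver. Col1a1 measured 170.2, 129 and 147 against 316, 2029 and 571 (-2.28 ± 0.45, adjusted p = 0.00835), and Col3a1 135, 134 and 145 against 293, 693 and 412 (-1.67 ± 0.25). AAF/PH animal 2 was the highest in both. The crosslinking enzyme gene Loxl1 (-1.43) and the microfibril gene Fbn1 (-1.21) were lower too. Lum measured 4.51, 3.52 and 3.78 against 4.1, 48 and 5.12 and Postn 7.68, 6.95 and 6.92 against 9.17, 52.5 and 10.8. The high values of Lum (-1.36, adjusted p = 0.313) and Postn (-1.27, adjusted p = 0.16) were in AAF/PH animal 2 alone, and neither passed, nor did the inhibitor gene Timp1 (-1.02, adjusted p = 0.074). Against normal liver 5 of the 34 were higher and 1 lower in the foci, where 2.85% and 5.39% of all genes were. In AAF/PH liver 25 were higher and 0 lower, where 7.54% and 12.5% of all genes were. The medians of the list were 0.34 in the foci and 1.30 in AAF/PH liver. The count of 21 was 16 without AAF/PH animal 2, 13 without AAF/PH animal 3 or placebo animal 1 and 12 without placebo animal 2. The summed markers of stellate cells given above, which share Col1a1, Col3a1 and Lum with the list, moved in the same direction, and the part of those cells in these values was not tested.

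**Figure D4:**
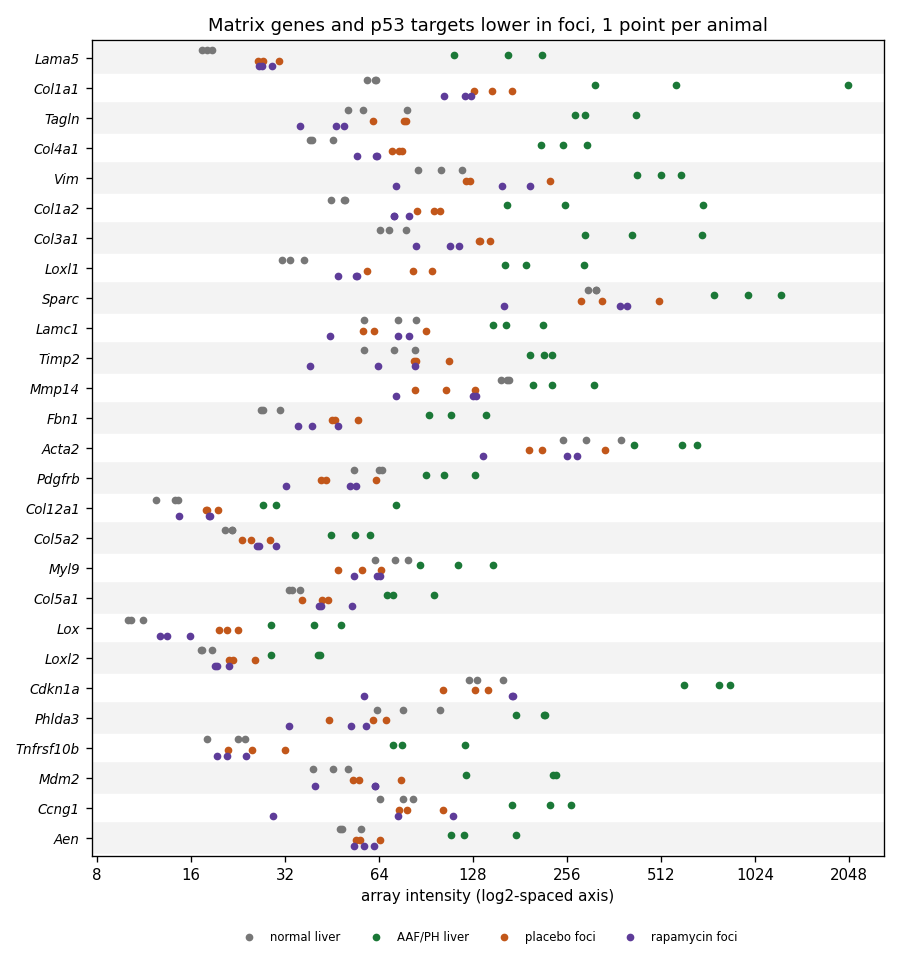
Array intensity (log2-spaced axis) of the 21 stellate cell and matrix genes, from Lama5 to Loxl2, and the 6 p53 targets, from Cdkn1a to Aen, that were lower in placebo foci than in AAF/PH liver, 1 point per animal in 4 groups of 3 animals. AAF/PH liver stands to the right of all placebo foci in every gene, and AAF/PH animal 2 is the far point of Col1a1 at 2029.

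Targets of the DNA damage factor p53 were lower in 6 of 21 and higher in 1, with a median of -0.45. Cdkn1a, the p21 inhibitor of cyclin-dependent kinases, measured 103, 129.9 and 142 in the foci and 852, 605 and 786 in AAF/PH liver (-2.58 ± 0.33, 5.98-fold lower, adjusted p = 0.000376). Phlda3, a repressor of AKT, measured 67.4, 44.2 and 61.2 against 217, 176 and 216 (-1.83 ± 0.25). Tnfrsf10b, a death receptor, measured 21, 25.1 and 32 against 75.9, 71.1 and 121 (-1.76 ± 0.23). Mdm2, the ligase that degrades p53, measured 55.4, 52.9 and 75.3 against 231, 121 and 237 (-1.64 ± 0.27), and Aen (-1.19) and Ccng1 (-1.36) were lower too. Of these 6 genes 0 were called in foci against normal liver, and all 6 were higher in AAF/PH liver than in normal liver. Gdf15 measured 60.4, 65.2 and 95.1 against 58.1, 61.5 and 85.7, and Tp53inp1 (-0.83, adjusted p = 0.271), Plk2 (-0.79, adjusted p = 0.392) and Plk3 (0.54) did not pass. Dcxr, a reductase of sugars and dicarbonyls, was the member that was higher (1.61 ± 0.32), and lost its call without AAF/PH animal 3. The count of 6 was 5 when any 1 normal, AAF/PH or placebo animal or rapamycin animal 1 was left out, and 10 without rapamycin animal 3. AAF/PH rats were killed on day 14 after a pellet on day 1, and rats with foci on day 70 after a pellet on day 14, so that time since AAF and kind of tissue cannot be told apart.

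Markers of biliary and oval cells were lower in 4 of 21 and higher in 0, with a median of -0.24. Dmbt1, a mucin-like protein of ducts, measured 32.8, 44.6 and 46.4 in the foci and 236, 279.6 and 271 in AAF/PH liver (-2.68 ± 0.25, adjusted p = 2.84e-05). Tspan8, a tetraspanin, measured 10.6, 10.1 and 11.2 against 22.8, 23.9 and 29.5 (-1.25 ± 0.17), and Prom1, the progenitor marker CD133, 9.92, 11.9 and 10.5 against 20.3, 22.1 and 46 (-1.35 ± 0.26). For Tspan8 and Prom1 the foci lay below their lowest array median of 21.2, so the sizes of these differences depend on dim values. Muc1 was lower (-0.78) and lost that call in 13 of 23 alternatives. Dmbt1, Tspan8 and Prom1 were not called in foci against normal liver (adjusted p from 0.267 to 0.863), whereas Cd24 and Krt19 were higher than in normal liver in both groups. Krt19, the duct keratin, measured 96.2, 60.5 and 273 against 65.3, 73.2 and 119, with placebo animal 3 the highest of all 6. Spp1, osteopontin, measured 23.4, 24.8 and 23 against 32.9, 205 and 55.6 (-1.61, adjusted p = 0.0643), and its highest value was that of AAF/PH animal 2. Onecut1 (-0.82) and Cldn7 (0.73) did not pass either. The count of 4 was 3 without AAF/PH animal 2, placebo animal 1 or 3, any of the normal animals or rapamycin animal 1. It was 8 without rapamycin animal 3, when 1 member was higher.

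Fetal liver genes were lower in 3 of 12 and higher in 0, with a median of -0.29. Afp, the fetal serum protein, measured 47.7, 54.6 and 46.1 in the foci and 623, 203 and 719 in AAF/PH liver (-3.19 ± 0.36, 9.11-fold lower, adjusted p = 0.000112). Dlk1, a surface protein of hepatoblasts, measured 36.5, 34.6 and 28.5 against 182, 55.7 and 109.9 (-1.65 ± 0.33), and Meg3, a noncoding RNA of the same imprinted domain, 41.5, 50.7 and 43.5 against 171, 90.5 and 145 (-1.54 ± 0.23). AAF/PH animal 2 was the lowest of its group in all 3 genes and still above every focus. H19 (-0.53, adjusted p = 0.206), Gpc3 (-0.39, adjusted p = 0.488) and Grb10 (-0.42) did not pass. Markers of foci and liver tumours divided, 5 higher and 5 lower of 21. Ggt1, gamma-glutamyl transpeptidase, a histochemical marker of foci, measured 125, 103 and 189 against 36.7, 40.4 and 42.8 (1.76 ± 0.29), and Akr1b10 69.4, 74 and 106 against 20.2, 26.4 and 16 (2.00 ± 0.31). Spink1, a trypsin inhibitor, was higher by 1.50, from 10.6 in AAF/PH liver to 30 in the foci, both under the 60.5 of normal liver. The AAF/PH mean of Spink1 lay below the lowest array median of that group, 22.7. Cd44, the hyaluronan receptor, measured 27.3, 28.9 and 37.2 against 88.7, 53.1 and 115 (-1.40 ± 0.26), and Lcn2, lipocalin 2, 18.6, 19.5 and 12.8 against 37.3, 54.2 and 57.6 (-1.55 ± 0.22). The foci of Lcn2 lay below their lowest array median of 21.2, so the size of its difference depends on dim values. Cdh13, at -1.09, was the other lower member beside Cdh17 and Prom1, and Cd36 (1.51, adjusted p = 0.105) and Anxa2 (0.79) did not pass.

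Of 44 cell cycle genes 1 was higher and 1 lower, with a median of -0.05. The share called, 4.55%, was near the 4.19% of all genes. Tyms, thymidylate synthase, measured 63.5, 50.2 and 71.7 in the foci and 146, 114 and 183 in AAF/PH liver (-1.24 ± 0.26, adjusted p = 0.0135). Ccnb2 was higher by 0.98 on the probe set used, but another probe set of Ccnb2 differed by -0.77, and the mean of both did not pass (adjusted p = 0.958). Rrm2 (1.37, adjusted p = 0.0835), Ccnb1 (0.68) and Mcm7 (-0.70) did not pass. Without AAF/PH animal 3 or placebo animal 1 or 2 the lower count was 0. Without rapamycin animal 3 the list had 4 higher and 3 lower members, and without rapamycin animal 1 it had 2 higher. Against normal liver, 8 of the 44 were higher in the foci (2.85% of all genes) and 14 in AAF/PH liver (7.54%). Cell junction and keratin genes were higher in 2 and lower in 2 of 23, where 2.62% and 1.57% of all genes were. The connexin genes Gjb2 and Gja1 went opposite ways. Gjb2, of the main hepatocyte connexins, measured 385, 319.9 and 432 against 43.1, 69.3 and 37 (2.97 ± 0.35, adjusted p = 0.000138), and Gja1, the connexin of many non-parenchymal cells, 39.2, 56.6 and 43.8 against 134, 139.8 and 192 (-1.74 ± 0.23). Cldn3 was higher by 1.06, a call lost without AAF/PH animal 2 or 3 or any placebo animal, and 4 junction genes were higher without rapamycin animal 3.

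Components of the growth hormone and IGF axis were higher in 3 and lower in 1 of 22, where 2.62% and 1.57% of all genes were. Igfbp3, the main carrier of IGF1, measured 254, 241 and 391 in the foci and 78.8, 72.6 and 62.9 in AAF/PH liver (2.02 ± 0.36). Igfals, the acid-labile subunit of the same complex, measured 125, 152 and 138 against 45.8, 28 and 23.8 (2.14 ± 0.26), and Ghr, the growth hormone receptor, 268, 278 and 282 against 125, 87.2 and 77.8 (1.54 ± 0.30). Igf1 itself differed by 0.15 and was not called. Igfbp1 was the lower member, called no longer without AAF/PH animal 3, and the lower count was 2 without placebo animal 2 and 3 without rapamycin animal 3. Among acute phase and complement genes, 3 were higher and 3 lower of 29. Orm1, orosomucoid, measured 1359, 1002 and 1751 against 3948, 3727 and 4301 (-1.58 ± 0.21), and C8g, a complement subunit, 327, 366 and 479 against 173, 89.7 and 98.7 (1.74 ± 0.34). The others called were Serpina3c and Apcs (0.98) above and A2m and Fgb (-0.70) below. That list kept 1 higher call without AAF/PH animal 2 or 3 and 1 lower call without AAF/PH animal 1 or 3 or placebo animal 1 or 2, against 6 and 6 without rapamycin animal 3. Of 26 coagulation factors and liver serpins 5 were higher and 2 lower, with a median of 0.45. Serpina4, kallistatin, measured 285, 315 and 363 against 72.1, 59.7 and 28.9 (2.68 ± 0.34), and Klkb1, prekallikrein, 128, 130.0 and 174 against 36.1, 31.7 and 24 (2.24 ± 0.27). The kininogen genes Kng1 and Kng2, near-identical paralogs whose signal may be shared, were lower (-1.12 and -1.20). Another probe set of Kng1 differed by -0.44. The call of Kng1 was lost in 6 of 23 alternatives, among them the mean over its probe sets (adjusted p up to 0.47), and that of Kng2 in 9. Higher coagulation genes numbered 3 without AAF/PH animal 1 or 3 or any placebo animal and 10 without rapamycin animal 3. The lower ones numbered 1 without AAF/PH animal 1 or 3 and 0 without AAF/PH animal 2 or placebo animal 1 or 2.

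Macrophage genes (4.35% called) and neutrophil and mast cell genes (4.55%) were called at shares near the 4.19% of all genes. Of 23 macrophage genes Marco, a scavenger receptor, was lower, at 33.2, 45.9 and 38.2 in the foci against 159, 172 and 132 in AAF/PH liver (-1.99 ± 0.23, adjusted p = 0.000156). The foci were low for Marco, since normal liver stood at 93, 145 and 189.6. Lyz2 (-1.39, adjusted p = 0.119), Adgre1 (-0.66) and Cd14 (1.05) did not pass, and 3 macrophage genes were lower without placebo animal 3 or rapamycin animal 2 and 4 without rapamycin animal 3. In lymphocytes (25 genes), MHC class II (10) and endothelium (20) limma called 0 members, with medians of -0.13, -0.23 and -0.18 and with groups that did not overlap in 3, 0 and 4 members, where 25.7% of all genes showed no overlap. MHC class II genes were above normal liver in both groups, 6 of 10 in the foci (2.85% of all genes) and 7 of 10 in AAF/PH liver (7.54%). RT1-Bb measured 119, 128 and 272 in the foci, 215, 214 and 210.4 in AAF/PH liver and 39.3 to 43.8 in normal liver. Among neutrophil and mast cell genes Lcn2 alone of 22 was called, and S100a9 stood at 123 in AAF/PH animal 2 against 29.5 and 32.5 in the others (-1.58, adjusted p = 0.0517). In that list 2 members were lower without AAF/PH animal 1 or 3 or rapamycin animal 2, and 3 without rapamycin animal 3. Interferon-stimulated genes were higher in 2 of 28 (7.14%, against 2.62% of all genes) and lower in 0, with a median of 0.54. Bst2 measured 696, 579 and 788 against 411, 195 and 236 (1.36 ± 0.31), and Oasl 35.5, 29.7 and 89.9 against 18.8, 15.2 and 19 (1.38 ± 0.36). For Oasl every AAF/PH value lay below the lowest array median of that group, 22.7. Placebo animal 3 was the highest for Oasl, for Usp18 at 22.1, 22.6 and 77.8 against 9.42, 9.84 and 9.77 (1.81, adjusted p = 0.0786), and for Gbp5 at 34.3, 26.3 and 167 (1.35, adjusted p = 0.342). Without placebo animal 3 the median of the interferon list was 0.23 and 0 members were called, as was so without AAF/PH animal 2 or 3 or placebo animal 1. With AAF/PH animal 1 or any of the 3 normal animals left out 1 remained, and without rapamycin animal 3 there were 7.

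**Figure D5:**
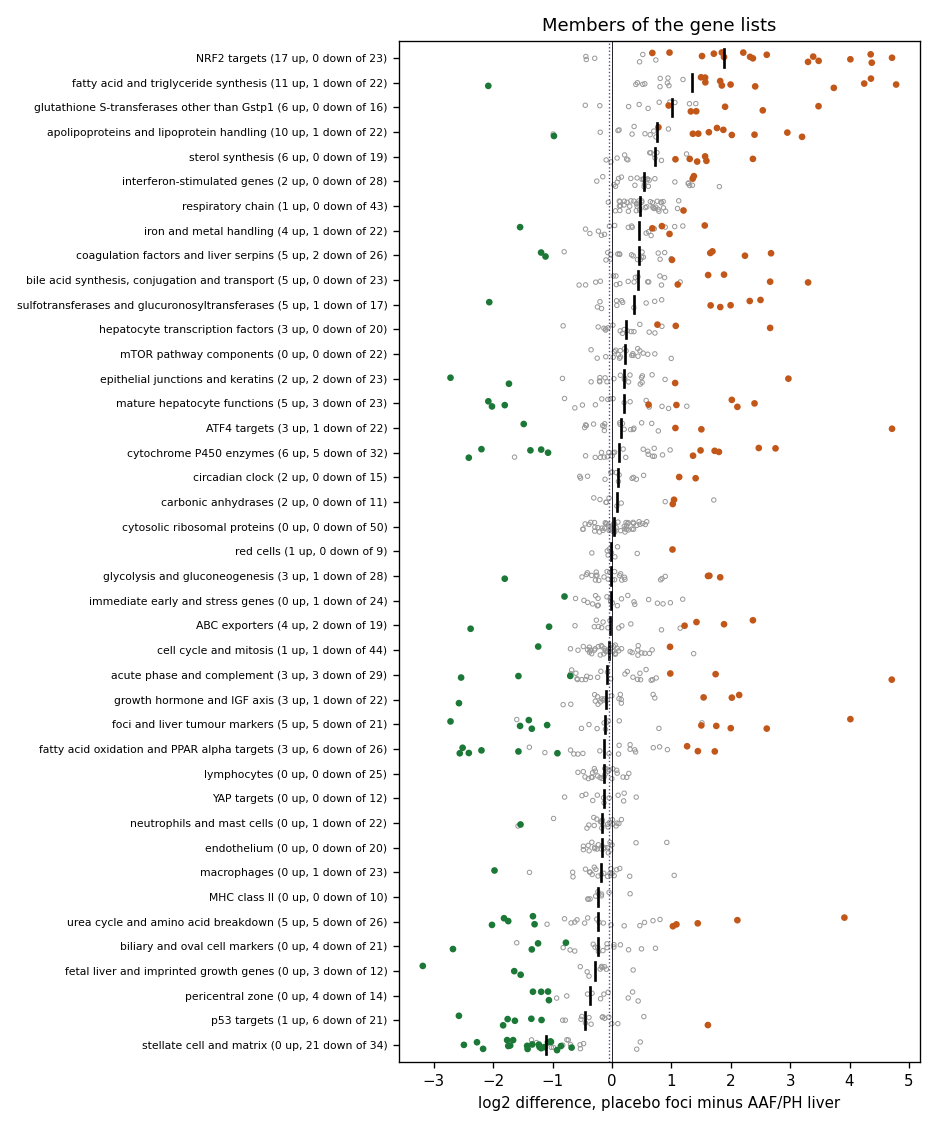
Log2 difference (placebo foci minus AAF/PH liver) of every measured member of the 41 gene lists, 1 point per gene, with called members filled and the list's median as a bar. The dotted line is the median of all 14497 genes at -0.05, and the medians run from -1.11 for stellate cell and matrix genes to 1.89 for NRF2 targets.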

How the data were processed

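RNA of 12 male F344 rats was measured on 14 Affymetrix Rat Gene ST 1.0 arrays, 1 per animal except rapamycin animal 3, whose 3 arrays were averaged. The authors deposited linear intensity values, summarised with RMA in Partek 6.6 per the submitters' processing notes, between 2.143 and 14037.8. The background and normalization settings are not given in the sources used here. Log2 of the deposited intensity was taken with no pseudocount, although the design had assumed log2 values. Of 28826 probe sets, 15209 carried 1 gene symbol, 306 several and 13311 none, and the brightest probe set stood for each of 494 genes with more than 1, which left 14497 genes. Of these, 14471 matched GRCr8 by Entrez number. Animals were grouped by their titles.

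With limma 3.58.1 in R 4.3.3, 1 fit of 4 group means over 12 animals (8 residual and 6.38 prior degrees of freedom) gave the differences, adjusted by Benjamini-Hochberg over all genes and called under 0.05. The procedure was tested on simulated data. Array intensities have no read depth, so the number of animals limits the precision. Animals with the same number deviated together with correlations of -0.00826, 0.246 and 0.336, and were not treated as pairs. In total 23 alternatives varied scaling, filters, probe sets, weights and animals.

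Named were the 15 largest called rises and falls without overlap, up to 6 called and 3 other members of each list, and cell type markers. The members and lists were chosen with earlier results of these data known. Taldo1, Tkt, Txnrd1, Ugdh, Me1, Hmox1, Cbr1, Trib3, Acly, Acaca, Elovl6, Fasn, Lpin1, Bdh1, Acadm, Vnn1, Cyp1b1, Ggt1, Cd44, Cdh13, Ccng1, Gdf15, Loxl2 and Igf1 were named after their values were seen.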

Additional observations from a re-analysis of the deposited data

How the results depend on the processing

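The direction of the 149 named and called genes was the same in each of the 23 alternatives that tested them. Prom1 was not tested once dim genes were left out. Many alternatives could not change a difference or a list median, so direction and medians were fixed there in advance. These were the intensity trend with robust prior, the replicate block, the fits without other groups, and those that left out or replaced normal or rapamycin arrays. Of the 149, 94 kept their call in each alternative that tested them and 55 lost it in at least 1. The 15 that lost it in at least 10 were Dbp, Cebpa, Cyp51, Muc1, Alb, Fgb, Oasl, Ppara, Sult2a1, Tm7sf2, Car14, Ftl1, Gpt2, Acta2 and Sc5d. Against 608 calls (380 higher and 228 lower in the foci), centring the arrays on their medians gave 399 (144 lower), quantile normalization 1039 (469 lower), array quality weights 2009 (1072 higher, 937 lower), the 6 compared animals alone 1330 (932 higher, 398 lower), and a fit without the rapamycin group 1581 (1062 higher, 519 lower). The weights had not converged. Leaving out 1 animal gave 330 to 1734 calls, 185 to 1131 higher and 123 to 603 lower. The median standard deviation of a gene between animals, on the log2 scale, was 0.331 in the rapamycin foci and 0.209 in the placebo foci. It was 0.196 in AAF/PH liver and 0.173 in normal liver. All 4 groups entered the shared estimate of the spread behind each adjusted p-value of the reported fit. The cause of the shifts in the number of calls was not tested. Higher genes made up 62.5% of the calls in the reported fit, 54.9% after quantile normalization, 53.4% with weights, 49.4% with an offset of 16 and 50.4% without placebo animal 3. With the replicate number as a block 429 genes were called, of which 428 were among the 608, although no label says that the numbers pair animals. Of 41 list medians, 32 moved by less than the spread between animals in every alternative and 30 kept their sign. Lists whose median changed sign, among them fatty acid oxidation, foci markers, cell cycle and exporters, lay close to 0. Array intensities of dim genes sit near the background, and leaving out dim genes gave 639 calls of 9500.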

Other observations

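Genes of the respiratory chain were called in 1 of 43 members (2.33%, against 4.19% of all genes). Of the 43 differences 42 were above 0 (6105 of all 14497 genes were), with a median of 0.47. In 28 members every focus stood above every AAF/PH animal (12.9% of all genes showed this). Ndufa10, a subunit of complex I, was the called member, at 157, 127 and 108 in the foci and 51.6, 48.4 and 72.9 in AAF/PH liver (1.19 ± 0.25, adjusted p = 0.0119), and Sdhc of complex II (1.12, adjusted p = 0.156) and Atp5po of the ATP synthase (1.10, adjusted p = 0.178) did not pass. Against normal liver 0 of the 43 were called in the foci (8.24% of all genes were) and 27 were lower in AAF/PH liver (12.5% of all genes were). Without rapamycin animal 3 the count was 17, and without AAF/PH animal 1 or 2 or placebo animal 1 it was 0. Iron and metal genes were higher in 4 of 22 and lower in 1. Slc39a4, a zinc importer, measured 243, 209 and 413 against 112, 63 and 116 (1.56 ± 0.38) and Hfe, a regulator of hepcidin, 64.8, 64.7 and 80.5 against 38.6, 41.8 and 36.6 (0.84 ± 0.20). Ferroportin, Slc40a1, measured 328, 340.0 and 418 against 196, 123 and 162 and did not pass (1.19, adjusted p = 0.0841). The higher iron genes numbered 2 without AAF/PH animal 1 or placebo animal 2, 1 without AAF/PH animal 2 or 3 or placebo animal 1, 0 without placebo animal 3, 7 without rapamycin animal 2 and 10 without rapamycin animal 3.

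Targets of ATF4, the factor of the amino acid and stress response, were higher in 3 of 22 and lower in 1. Slc7a11, also an NRF2 target, led, followed by Shmt2, mitochondrial serine hydroxymethyltransferase, at 242, 229.8 and 319 against 102, 89.2 and 85.6 (1.50 ± 0.26), and Gpt2 (1.07), whereas Ddit3, the stress factor CHOP, was lower at 43.1, 50.4 and 49.2 against 121, 129 and 150.0 (-1.49 ± 0.21, adjusted p = 0.000698). The count of 3 was 2 without AAF/PH animal 1, 2 or 3, placebo animal 1 or 3 or normal animal 3, and 5 without rapamycin animal 3. In glycolysis and gluconeogenesis 3 of 28 were higher, Pfkfb1, Pc and Pklr, and Pck1 was lower, with Pc, pyruvate carboxylase, at 315, 251 and 332 against 102, 101 and 88.3 (1.62 ± 0.25). The higher count there was 2 without AAF/PH animal 2 and 6 without rapamycin animal 3. Of 15 clock genes Nr1d1 (1.41 ± 0.32) and Dbp (1.13, adjusted p = 0.0497) were higher, and the time of day of killing was not used here. Both calls were lost without AAF/PH animal 1 or 2 or placebo animal 1 or 2, and 1 of them without AAF/PH animal 3, placebo animal 3, any normal animal or rapamycin animal 1. Carbonic anhydrases Car5a (1.04) and Car14 (1.02) were higher of 11. Car2 measured 1117, 906 and 1407 in the foci, 557, 165 and 439 in AAF/PH liver and 35.7 to 74.1 in normal liver, and was higher than normal in both groups without a call between them (1.71, adjusted p = 0.104). Of the carbonic anhydrases 1 was called without AAF/PH animal 2, any normal animal or any placebo animal, 0 without AAF/PH animal 3 and 4 without rapamycin animal 3. Klf2, a transcription factor of endothelium, was the 1 lower of 24 immediate early and stress genes (-0.81), called no longer without AAF/PH animal 1 or placebo animal 1 or 2. The share called in that list, 4.17%, was near the 4.19% of all genes. Of red cell genes Hbb-b1 was higher (1.01), which was lost without AAF/PH animal 1 or any placebo animal. In YAP targets (12 genes), mTOR components (22) and cytosolic ribosomal proteins (50), limma called 0 members, with medians of -0.14, 0.22 and 0.04. Since only 4.19% of all genes were called, counts of 0 in lists of this size say little about them.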
